A study of Mus musculus with 3 samples.

Results

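Of the 626 rows in the NanoString table, nearly all of which are miRNAs, 4 are described here. Their status as true miRNAs is doubtful, because they resemble transfer RNA (tRNA) fragments or are otherwise non-canonical. How many other rows carry doubtful entries was not determined. The 4 are miR-720 (MIMAT0003484), miR-1937a+b (MIMAT0009401, 1 row for both entries), miR-1937c (MIMAT0009429) and miR-1944 (MIMAT0009409). The rows were taken by their miRBase identifiers and had been chosen because, in these same samples, they were higher after light damage or were lower by little after Dicer deletion. Both of these comparisons are therefore a description of how the rows were picked and not a test. The table holds counts and no sequences, so the tRNA-like character of the entries was not checked here.

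The counts come from Müller glia (MG), the main glia of the retina, sorted by fluorescence from adult mice that carry Rlbp1-CreER, which is active in MG, and a tdTomato reporter. The wild type (wt) sample pooled 40 undamaged retinas. The light damage (LD) sample pooled 44 retinas taken 7 days after 8 h of light at 10000 lux, from mice that had in addition been crossed to the albino Swiss Webster strain that carries the leucine variant of RPE65. The Dicer-cKO sample pooled 26 retinas of Rlbp1-CreER:tdTomato mice that also had floxed Dicer (Dicerf/f), 1 month after deletion. All mice received tamoxifen at 75 mg/kg, on 3 consecutive days in the labels and 4 in the study's methods, and the methods give an age of 2 to 3 months. Each condition is 1 pooled sample, so there was no spread between replicates and no test, and the intervals below cover counting error only. They are exact 95% Clopper-Pearson intervals, except for changes of a ratio between rows, where this is stated. The study states that its wt and Dicer-cKO miRNA data had been published earlier and were normalized again with the LD data. Strain and time of measurement therefore cannot be told apart from light damage. Whether the wt and Dicer-cKO samples were measured together was not checked. The panel rows are not paired with names in the sources used here, so the MG identity of the sorted cells was not checked against glial or neuronal miRNAs.

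Dicer is the RNase that cuts hairpin precursors into mature miRNAs, and its loss is expected to deplete miRNAs at the speed of their turnover. tRNAs carry amino acids to the ribosome and end in a CCA tail that is added after transcription. In stressed cells RNases such as angiogenin are known to cleave tRNAs into fragments, which do not need Dicer, although Dicer has been reported to cut some tRNAs too. miR-720 and the miR-1937 entries have been described as pieces of tRNAs. NanoString ligates a tag to small RNAs through a bridge oligonucleotide and counts tagged molecules without amplification, so the length of the tagged molecule is not known, and a tRNA fragment and a longer RNA with the same end cannot be told apart.

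miR-720 was by far the most abundant of the 4. Its normalized count was 23904 in wt MG, 172827 in the LD sample and 10983 in Dicer-cKO MG. In the order of all miRNA rows of a sample it stood at place 6, 1 and 5, so that after LD no other miRNA row was higher. miR-1937a+b had 1094 normalized counts in wt MG, 6129 in the LD sample and 1298 in the Dicer-cKO sample, and moved from place 39 in wt to 15 after LD and 26 in Dicer-cKO MG. miR-1937c had 632, 2559 and 401 normalized counts in the same order, at places 50, 22 and 49. These 3 entries had their highest count in the LD sample. miR-1944 had its highest count in the wt sample instead, with 5024 normalized counts compared with 2622 in the LD sample and 3535 in the Dicer-cKO sample, at places 18, 21 and 13. Before the authors' scaling the smallest count behind any of these values was 91, for miR-1937c in Dicer-cKO MG, and the largest was 84918, for miR-720 after LD.

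**Figure D1:**
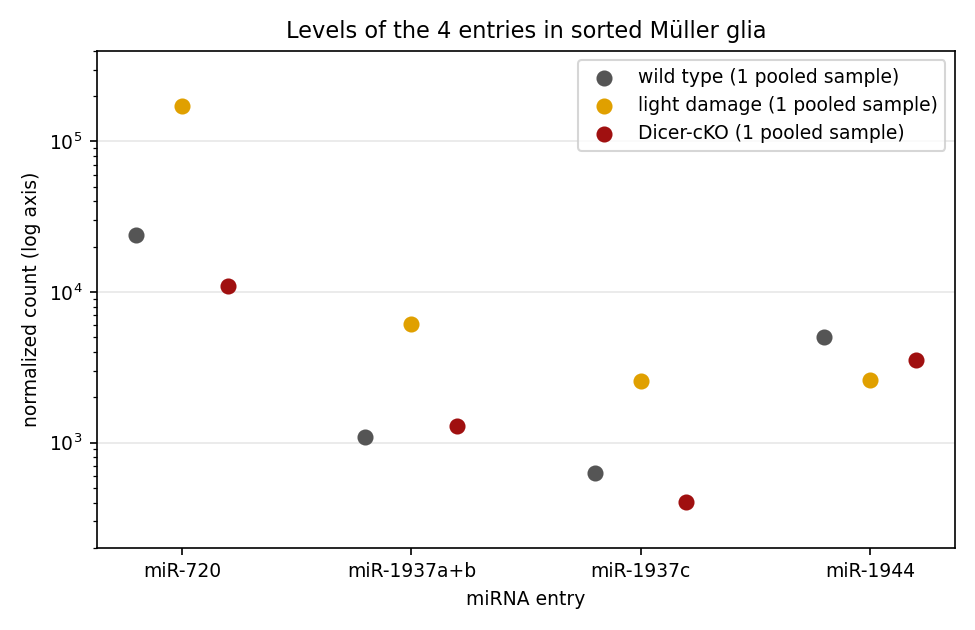
Normalized counts (log axis) of the 4 entries (horizontal axis) in the 3 samples, 1 point per pooled sample, with no error bars because there are no replicates. miR-720, miR-1937a+b and miR-1937c are highest after light damage, whereas miR-1944 is highest in wild type, with 5024 counts.

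A share of the summed miRNA counts of a sample does not depend on how samples are scaled to each other. The 4 entries together held 3.91% of the miRNA counts in wt MG (95% interval 3.86 to 3.96), 39.3% after LD (39.1 to 39.5) and 8.29% in Dicer-cKO MG (8.03 to 8.55). Nearly all of the LD share was miR-720, at 36.9% (36.7 to 37.1) compared with 3.05% (3.01 to 3.09) in wt MG and 5.61% (5.40 to 5.83) in Dicer-cKO MG. The share of miR-1937a+b was 0.140%, 1.31% and 0.663% in wt, LD and Dicer-cKO MG, and that of miR-1937c was 0.0806%, 0.546% and 0.205%. Both miR-1937 rows therefore took a larger part of the counts in LD and in Dicer-cKO MG than in wt MG. For comparison, 104 miRNAs, the 4 entries among them, had a mean over the 3 samples of 100 normalized counts or more. Of these, 52 took a larger share after LD than in wt MG and 73 did so in Dicer-cKO MG. Their median ratio of shares to wt was 1.03 after LD and 1.56 in Dicer-cKO MG. After LD this ratio was 12.1 for miR-720, 9.37 for miR-1937a+b, 6.77 for miR-1937c and 0.873 for miR-1944. In Dicer-cKO MG it was 1.84, 4.75, 2.54 and 2.82 in the same order. miR-1944 took its largest part in Dicer-cKO MG, at 1.81% (1.68 to 1.94), compared with 0.641% (0.622 to 0.660) in wt MG and 0.560% (0.530 to 0.591) after LD. In each pooled sample, fewer cells that hold an RNA and less of it per cell cannot be told apart.

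**Figure D2:**
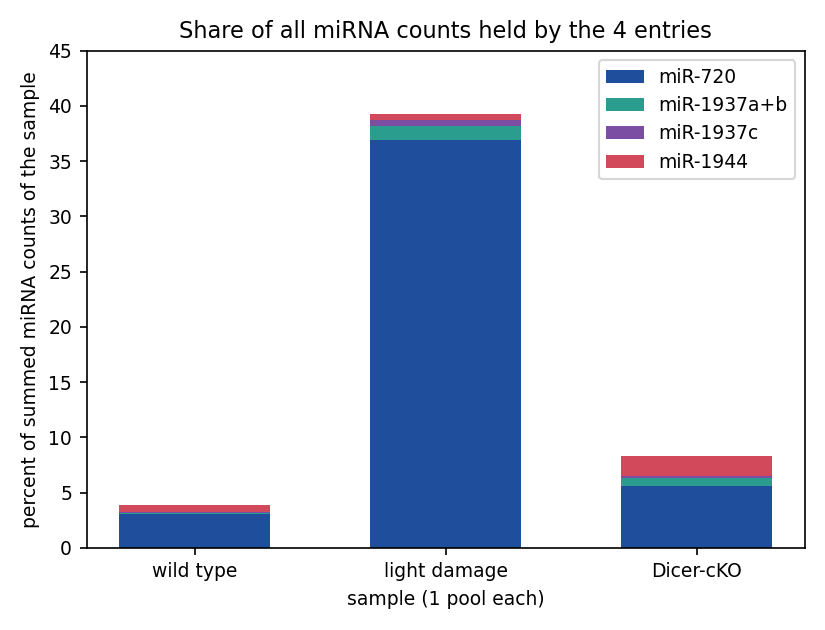
Percent of the summed miRNA counts of each sample (vertical axis) held by the 4 entries, stacked by entry, for 1 pooled sample per condition. The stack reaches 3.91% in wild type, 39.3% after light damage and 8.29% in Dicer-cKO, and miR-720 makes up 36.9% of the light damage sample.

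The size of these shares changes how the sum of all miRNAs compares between the samples. The summed normalized miRNA counts were 783889 in wt, 468576 in LD and 195642 in Dicer-cKO MG. Of these, the 4 entries held 30654, 184137 and 16217. In the authors' scaling the sum with the 4 entries was 40.2% lower after LD than in wt MG. Without them, it was 62.2% lower, at 284439 compared with 753235 counts. The direction of the sum with the entries depended on the scaling. Under the 11 scalings that do not set this sum equal, the ratio of LD to wt was between 0.300 and 1.58. It was below 1 in 8 and above 1 in 3. The 1.58, with the total of the other miRNAs as reference, follows from the shares alone. The other ratios above 1 were 1.07 with the median of ratios and 1.26 with Gapdh mRNA as reference. The sum without the entries was below wt in all 11 scalings that do not set it equal, between 0.189 and 0.794. Among these, the 0.632 with an equal total also follows from the shares alone. For Dicer-cKO MG the entries made little difference, with a sum 75.0% lower with them and 76.2% lower without them in the authors' scaling. The size of this decline depended on the scaling. Leaving out the scalings to either total, the ratio to wt was between 0.0460 and 0.513 with the entries. Without them it was between 0.0439 and 0.490.

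After LD, 3 of the 4 entries were higher than in wt MG by more than counting error, and the same 3 by at least 2-fold. The ratio of LD to wt was 7.23 (95% interval 7.12 to 7.34) for miR-720, 5.60 (5.21 to 6.03) for miR-1937a+b and 4.05 (3.66 to 4.48) for miR-1937c. miR-1944 was lower, with a ratio of 0.522 (0.490 to 0.556). Among the 104 expressed miRNAs, defined by a mean over the 3 samples of 100 normalized counts or more, 29.8% were higher after LD and 18.3% were at least 2-fold higher. The entries were selected on this comparison, so nothing follows from their larger share. The median ratio of the 104 was 0.613. The ratio divided by this median, which no scaling can change, was 11.8 for miR-720, 9.14 for miR-1937a+b, 6.61 for miR-1937c and 0.851 for miR-1944.

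In the order of the ratios of LD to wt, miR-720, miR-1937a+b and miR-1937c were at places 6, 8 and 15 of the 104 expressed miRNAs. The row just above miR-720, with 52 normalized counts in wt MG, had a ratio of 7.38 (5.31 to 10.5) and the row just below it, with 47, a ratio of 6.13 (4.30 to 8.91), so neither neighbour differed from miR-720 by more than counting error. The row just above miR-1937c was more abundant, with 1354 counts in wt MG, and its ratio of 4.07 (3.80 to 4.36) lay within the interval of miR-1937c. miR-1944 was at place 60 of 104, next to rows with ratios of 0.522 (0.393 to 0.686) and 0.519 (0.457 to 0.588).

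In all, 5 miRNA rows were higher than in wt MG and reached 5000 normalized counts or more after LD. miR-720 and miR-1937a+b are 2 of them. The study's text names the rest as miR-29a, miR-29b and miR-124, which are made from hairpins by Dicer, without a pairing of names and rows in the sources used here. Sorted by size, and not in the order of these names, the 3 rows had ratios of LD to wt of 1.26, 4.07 and 4.30. Their ratios of Dicer-cKO to wt were 0.465, 8.94 and 1.15, in the same order of rows. Of these 5 rows, the one with the highest count in Dicer-cKO MG, 12106, was not one of the 4 entries.

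After Dicer deletion, 3 of the 4 entries were lower than in wt MG by more than counting error in the authors' scaling. This direction depended on the scaling. With an equal total miRNA count 0 of the entries were lower, and 73 of the 104 expressed miRNAs were higher. The ratio of Dicer-cKO to wt was 0.459 (95% interval 0.441 to 0.479) for miR-720, 0.634 (0.502 to 0.794) for miR-1937c and 0.704 (0.652 to 0.759) for miR-1944. miR-1937a+b was slightly higher, with a ratio of 1.19 (1.04 to 1.35). Of the 104 expressed miRNAs, 76.0% were lower in Dicer-cKO MG than in wt MG, and the median ratio was 0.388. A ratio of at least 0.5 was found for 3 of the 4 entries, all but miR-720, and for 39.4% of the expressed miRNAs. In the authors' scaling that share was 21.6% at a mean cutoff of 1000 counts. Without scaling between samples the number of entries was 0, and the median ratio of the expressed miRNAs was 0.101. Relative to the median of 0.388 in the authors' scaling, the ratios were 1.18 for miR-720, 1.63 for miR-1937c, 1.81 for miR-1944 and 3.05 for miR-1937a+b.

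In the order of the ratios of Dicer-cKO to wt, miR-1937a+b was at place 23 of 104, miR-1944 at 31, miR-1937c at 36 and miR-720 at 47. The rows on either side of miR-720 had ratios of 0.463 (0.428 to 0.499) and 0.455 (0.406 to 0.510) and did not differ from it by more than counting error.

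miR-1944 and miR-720 were abundant enough in wt MG to be set beside the major miRNAs of these cells. In wt MG 23 miRNA rows had at least 3000 normalized counts, and the other 21 of them had ratios of Dicer-cKO to wt between 0.0931 and 0.465, with a median of 0.251. miR-1944, which had been picked for this comparison, was at place 1 of the 23. The limit of 3000 counts was set after the values were seen, and a row below it, with 2300 counts in wt MG, had a ratio of 0.685 (0.610 to 0.767), within counting error of miR-1944. miR-720 was at place 4 of the 23, behind rows with ratios of 0.465 and 0.463. After LD the 21 rows had ratios to wt between 0.174 and 1.26, with a median of 0.486. miR-720 was at place 1 and miR-1944 at place 9, so the LD ratio of miR-1944, unlike its Dicer-cKO ratio, was near the middle of the abundant miRNAs.

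**Figure D3:**
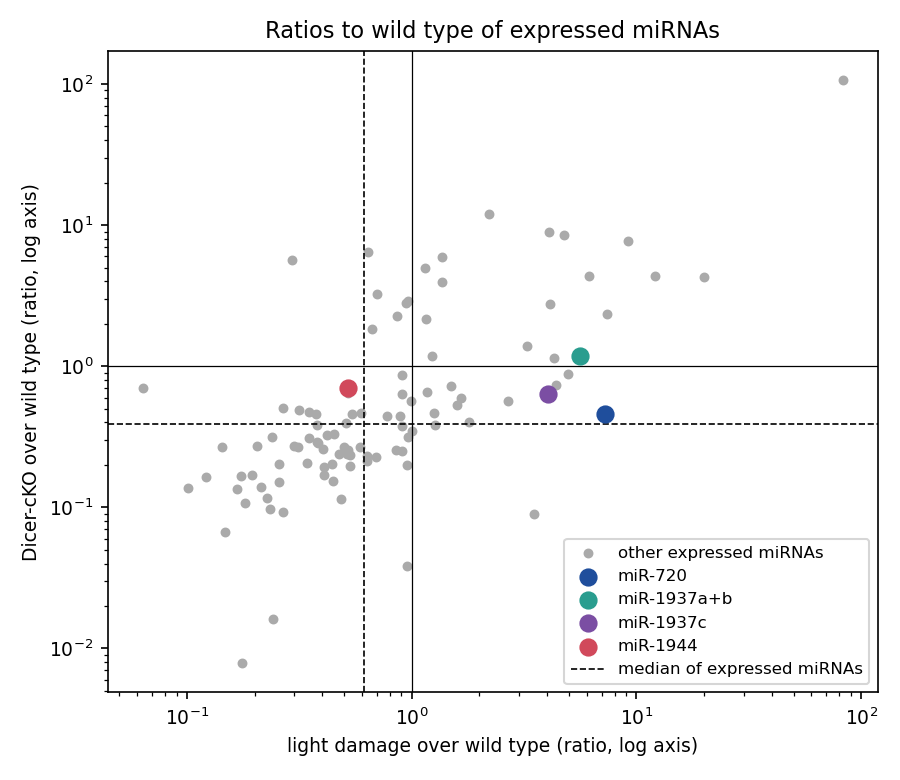
Ratio of light damage to wild type (horizontal, log axis) against ratio of Dicer-cKO to wild type (vertical, log axis) for the 104 expressed miRNAs; both share the wild type sample, dashed lines are the medians of 0.613 and 0.388 and thin lines mark a ratio of 1. miR-720, miR-1937a+b and miR-1937c lie to the right, at 7.23, 5.60 and 4.05, and miR-1944 lies left of the vertical median and above the horizontal one.

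Comparing LD directly with Dicer-cKO MG leaves out the wt sample, but it uses the LD and Dicer-cKO values on which the entries were picked, so it too is a description. In this comparison 3 of the 4 entries were higher after LD, as were 72.1% of the expressed miRNAs. The ratio was 15.7 (95% interval 15.1 to 16.4) for miR-720, 6.38 (5.15 to 7.99) for miR-1937c and 4.72 (4.19 to 5.34) for miR-1937a+b, whereas the median of the 104 was 1.67. For miR-1944 it was 0.742 (0.679 to 0.811). Just 1 of the rows next to the entries had more than 200 counts in both samples; it stood below miR-1937c with a ratio of 5.96 (4.58 to 7.89), within the interval of miR-1937c.

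The entries did not change in parallel. The ratio of one row to another within a sample is free of the scaling, and how it changes between samples can be read directly, although the level of one row against another also depends on the probes. The ratio of miR-720 to miR-1937a+b was 21.9 in wt MG, 28.2 after LD and 8.46 in the Dicer-cKO sample. It was thus 1.29 times as large after LD as in wt MG (approximate 95% interval from the log counts, 1.20 to 1.39), but 0.387 times as large in Dicer-cKO MG (0.338 to 0.444). miR-1937a+b and miR-1937c, which share a family name, also diverged, with a ratio of miR-1937a+b to miR-1937c of 1.73 in wt MG, 2.40 after LD and 3.24 in the Dicer-cKO sample. This ratio was 1.38 times (1.22 to 1.57) and 1.87 times (1.44 to 2.42) that of wt MG, respectively. The ratio of miR-720 to miR-1944 was 4.76 in wt MG, 65.9 after LD and 3.11 in the Dicer-cKO sample, a change by a factor of 13.9 (13.0 to 14.8) after LD and of 0.653 (0.599 to 0.712) after Dicer deletion. Against miR-1944, miR-1937c changed by a factor of 0.902 (0.713 to 1.14) after Dicer deletion, and the data did not separate these 2 entries in that comparison. Every other change between a pair of the entries that is given here exceeded counting error.

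The patterns over the 3 samples were compared by the distance between the pairs of log2 changes to wt (pseudocount 1) of the expressed miRNAs. The entries had been picked on these same changes, so their distances to each other are a description and not a test of likeness. The row nearest to miR-720 was miR-1937c, at a distance of 0.96, followed by 2 rows without a paired name at 0.99 and 1.09. The same 2 unnamed rows were among the 3 nearest to miR-1937a+b and to miR-1937c. They had 358 and 174 normalized counts in wt MG, 1574 and 862 in the LD sample and 264 and 153 in the Dicer-cKO sample. Both were higher after LD, and their ratios of Dicer-cKO to wt were 0.737 and 0.879, for which no interval is given. By ratio alone, without regard to counting error, 6 expressed miRNAs were at least 2-fold higher after LD and lower in Dicer-cKO MG, miR-720 and miR-1937c among them, and 13, miR-1937a+b among them, were at least 2-fold higher after LD and higher in Dicer-cKO MG. For miR-1937a+b the nearest row, at 0.38, had 1748, 7515 and 2005 counts in wt, LD and Dicer-cKO MG and is among the 3 rows that the study's text names as miR-29a, miR-29b and miR-124. miR-1944 was far from the other entries, at a distance of 3.84 from miR-720, among whose neighbours it was at place 44. The rows nearest to miR-1944, at 0.05 and 0.13, had 2300, 1232 and 1576 counts and 1257, 652 and 807 counts in wt, LD and Dicer-cKO MG, respectively, with the lowest count after LD as for miR-1944. The third nearest, at 0.61, had 194, 115 and 91 counts and was lowest in Dicer-cKO MG instead. These likenesses rest on 3 samples, and with a pseudocount of 50 only 2 of the 3 nearest rows were kept for miR-1937a+b and for miR-1937c.

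The direction of a change depended on the reference for the LD and Dicer-cKO samples to an unequal degree. The authors scaled to 4 mRNAs, and the factors recovered from the deposited values were 1.15 for wt, 2.04 for LD and 4.42 for Dicer-cKO MG. The 4 mRNAs did not move together. Of them, Gapdh, a glycolytic enzyme, was at 0.475 of wt after LD, and Rpl19, a protein of the ribosome, at 1.71. Actb (cytoskeletal actin) was at 1.18 and B2m (a subunit of MHC class I) at 1.04. In Dicer-cKO MG the 4 lay between 0.778 for Gapdh and 1.29 for B2m. With the authors' scaling and 11 alternatives, 12 in all, the median ratio of the expressed miRNAs ranged from 0.307 to 1.62 for LD over wt and from 0.0716 to 1.63 for Dicer-cKO over wt. The number of the 104 that were higher ranged from 19 to 76 after LD and from 8 to 74 after Dicer deletion, compared with 31 and 25 in the authors' scaling.

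Under all 12 scalings miR-720, miR-1937a+b and miR-1937c were at least 2-fold higher after LD than in wt MG, at the lowest 3.62-fold, 2.81-fold and 2.03-fold with the 6 highest ERCC rows as reference. The 12 include the counts before any scaling, where the ratios were 4.10 (95% interval 4.04 to 4.17), 3.18 (2.95 to 3.42) and 2.30 (2.08 to 2.55). The entries had been picked on this comparison, so this too is a description. Of the 104 expressed miRNAs, 19 were higher after LD with the ERCC rows and 20 without scaling. The share at least 2-fold higher is given for the authors' scaling only, where it was 18.3%. miR-1944 was lower after LD under 10 of the 12 and higher with Gapdh alone or with the total of the other miRNAs as reference. After Dicer deletion no entry kept 1 direction under the 12 scalings. miR-720 was lower under 10, miR-1937c and miR-1944 were lower under 8, and miR-1937a+b was higher under 8. For LD against Dicer-cKO, the same 3 entries were higher after LD under all 12, while miR-1944 was lower under 8. Of the 104 expressed miRNAs, between 33 and 101 were higher in this comparison, depending on the scaling, compared with 75 in the authors' scaling.

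**Figure D4:**
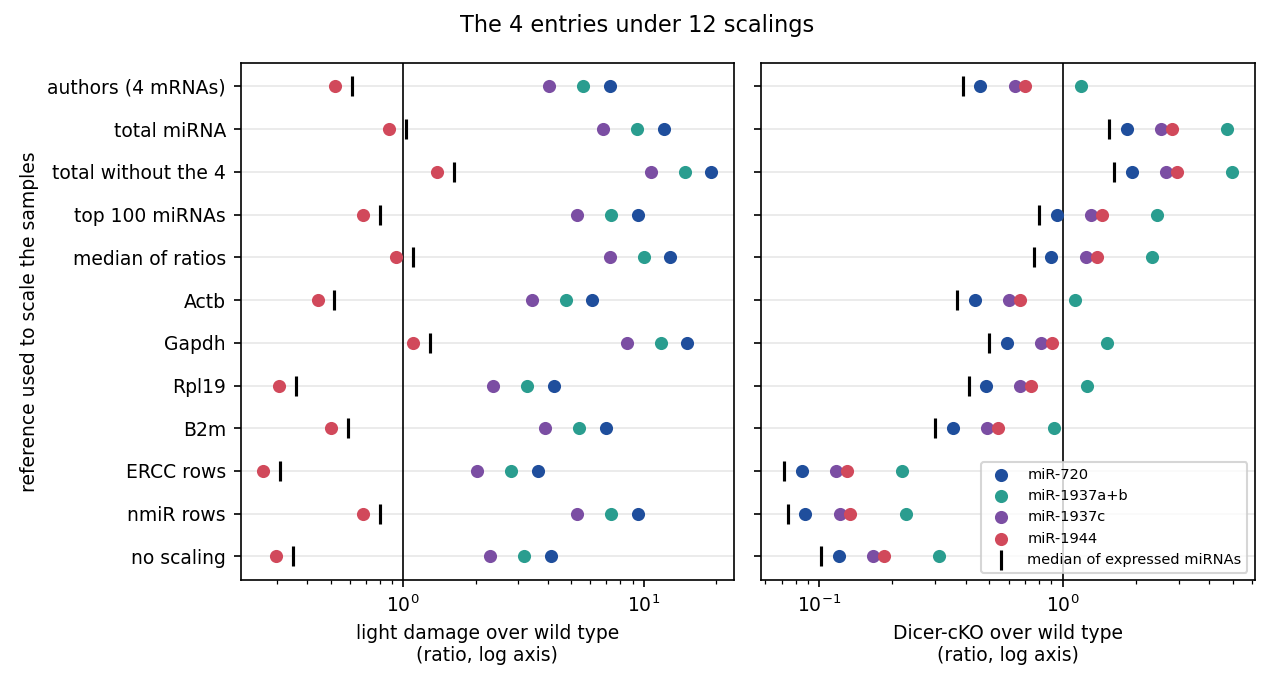
Ratio to wild type (log axes) of the 4 entries after light damage (left) and in Dicer-cKO (right) under 12 references for scaling the samples, listed on the vertical axis; black ticks are the median of the 104 expressed miRNAs. On the left miR-720, miR-1937a+b and miR-1937c stay right of the line at 1 in every row, with a lowest value of 2.03, whereas on the right all 4 entries are found on both sides of the line.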

How the data were processed

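NanoString nCounter miRNA counts of 3 pooled samples, 1 per condition, were used, from 200 ng of total RNA each. The authors deposited a normalized signal made with nSolver 4.0, in which counts were corrected with 8 negative and 6 positive controls and scaled to 4 housekeeping mRNAs, for all 3 samples together. The table has 626 rows, namely 602 miRNAs, 4 mRNAs, 14 ERCC rows and 6 rows named nmiR. Most miRNA values are whole numbers. Rows were grouped by the sample labels.

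The scaling factors were found from the decimals that the mRNA and nmiR rows keep. Values divided by them are the counts before scaling, on which intervals of ratios and shares were computed and which summed to 678721 in wt, 230232 in LD and 44258 in Dicer-cKO MG. The intervals take counts after subtraction of a background of unknown size. They were tested on simulated data. The simulated counts had no background subtracted and no differences between pools, so the test does not bear on either.

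The 4 members, lists and alternatives were chosen with earlier results of these data known. The rule for named rows was the 4 members, the 3 expressed miRNAs of nearest profile and the neighbours in the order of ratios. Planned lists of canonical, non-canonical, doubtful-entry and cell type miRNAs need names that the sources used here do not pair with rows, and they are not reported. The 21 other rows of at least 3000 wt counts, chosen after the data were seen, took the place of the first. The symbols of the mRNAs come from RefSeq (GRCm38.p6). Alternatives were 11 scalings, subtraction of the 10th percentile, and other cutoffs and pseudocounts. The software was scipy 1.17.1, numpy 2.4.6, matplotlib 3.10.9 and pandas 2.3.3 under Python 3.11.15.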

Additional observations from a re-analysis of the deposited data

How the results depend on the processing

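No paired analysis was possible because there is a single pool per condition. The scaling multiplies all rows of a sample by 1 factor, so it moves the 4 entries together, and why the references differ was not tested. The number of entries lower in Dicer-cKO MG than in wt MG was 3 in the authors' scaling. It was 0 with an equal total miRNA count and 0 with an equal total without the 4 entries. It was 1 with the 100 miRNAs of highest mean and 1 with the median of ratios. In the same order, 73, 74, 42 and 40 of the 104 expressed miRNAs were higher than in wt MG. All 4 entries were lower with B2m, the ERCC rows, the nmiR rows and no scaling, where 22, 8, 8 and 13 of the 104 were higher. The number with a ratio of at least 0.5 to wt, also 3 in the authors' scaling, was 0 with the ERCC rows, 0 with the nmiR rows and 0 without scaling. There the expressed miRNAs were low as well, with median ratios of 0.0716, 0.0742 and 0.101 in the same order. The other counts of entries and the 3 shares stayed within 1.5 times or within their interval under all alternatives run for them. For Dicer-cKO over wt, an equal total gave 1.84 for miR-720, 2.54 for miR-1937c and 2.82 for miR-1944, and an equal total without the entries gave 1.93, 2.66 and 2.95. With the 100 highest miRNAs miR-1937c was at 1.30 and miR-1944 at 1.45, and with the median of ratios they were at 1.24 and 1.38. The ratio of miR-1937a+b fell below 1 with B2m (0.918), the ERCC rows (0.219), the nmiR rows (0.227) and no scaling (0.310). For miR-1944, LD over wt was 1.38 with the total without the entries and 1.10 with Gapdh, and LD over Dicer-cKO was 1.21 with Gapdh, 2.02 with the ERCC rows, 5.08 with the nmiR rows and 1.61 without scaling. The summed miRNA counts with the entries were an alternative added after seeing the data. They were above wt after LD with the median of ratios (1.07) and Gapdh (1.26). With the total without the entries as reference, they were at 1.58 after LD and 1.05 in Dicer-cKO MG. These values follow from the shares alone and say nothing about the choice of reference. The share of expressed miRNAs with a ratio of Dicer-cKO to wt of at least 0.5 was 45.5%, 32.8% and 21.6% at mean cutoffs of 30, 300 and 1000. Subtracting the 10th percentile left all 12 ratios within their intervals. Counting depth was lowest in Dicer-cKO MG, where miR-1937c rests on 91 counts, and differences between animals or sorts could not be measured.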
